A study of Homo sapiens with 18 samples.

Results

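The regions described here are the QKI footprints of day 0 only: stretches of RNA that carried reproducible QKI peaks in undifferentiated human embryonic stem cells and none in the reproducible lists of their later cardiac derivatives. Reproducible peaks of day 0, day 4 and day 8 that overlapped or touched on the same chromosome and strand were joined into footprints. A footprint was a member if it held peaks of the day 0 list and none of the day 4 or day 8 list. This gave 5564 members of 7018 footprints in all, or 79.3%. They held 6024 of the 7778 reproducible peaks of day 0 and made up 85.7% of the 6496 footprints with a day 0 peak.

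QKI binding was profiled by eCLIP in HUES6, an established human embryonic stem cell line. In this assay RNA and protein are crosslinked in live cells by ultraviolet light, QKI is pulled down with an antibody (the IP), and its RNA is sequenced next to an input of matched size. Day 0 cells were kept in pluripotency medium. Day 4 cells, called cardiac progenitors in the labels, had first received CHIR at 1.5 uM together with BMP4 at 1.5 ng/mL, followed by 48 hours in C59 at 100 nM. Day 8 cells, called cardiomyocytes, followed the same course with a further addition of C59, whose unit the labels write as mM, and were crosslinked after beating was seen from day 7 on. CHIR activates and C59 blocks Wnt signalling. Each day had 3 IP libraries and 3 inputs, all from the same line without a genetic change named in the labels. The labels leave unsaid whether a day's 3 libraries were grown apart, and their spread may therefore be technical.

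QKI belongs to the STAR proteins, which bind RNA through a KH domain. It binds as a dimer to sites built around the letters ACUAA, mostly in introns and 3′ untranslated regions, and it steers alternative splicing, RNA stability and the making of circular RNAs. In the heart lineage it is known as a splicing regulator of genes for the contractile apparatus. A peak shows bound RNA, so it needs both the transcript and the protein. RNA levels were not measured here, and in these bulk samples fewer cells of a type, less RNA per cell and less binding per RNA cannot be told apart. Genes were not assigned, because no annotation of the hg19 build of the files was used here, and the labelled cell types were not checked against their marker genes for the same reason. No sequence is shown, since no hg19 genome was used. Regions are named by their hg19 position and strand.

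The 9 libraries differed in length. In the authors' lists, day 0 libraries held 102085 to 187962 clusters, day 4 libraries 63319 to 99552 and day 8 libraries 52462 to 62897. A cluster counted as a passing peak if its authors' enrichment over input was at least 4-fold with p at or below 0.001. Passing peaks numbered 12695 to 15508 at day 0, 3030 to 7775 at day 4 and 3726 to 10966 at day 8. Read depth is unknown, because the files hold peaks and no reads.

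The members were mostly single, narrow peaks. Their median width was 78 nt, with quartiles of 62 and 100 nt and a range of 2 to 398 nt. A single day 0 peak made up 5198 of them, 307 held 2 and 59 held 3 or more. The plus strand carried 3013 members and the minus strand 2551. The highest log2 fold of a member in the day 0 list had a median of 4.41 and a lower quartile of 3.79. In the same list the median was 5.51 for the 196 footprints shared with day 4 alone, 5.10 for the 335 shared with day 8 alone and 6.08 for the 401 shared by all 3 days. These folds took part in choosing the reproducible peaks and are given as a description. Footprints of several day 0 peaks made up 6.58% of the members, 27.6% of those shared with day 4, 19.1% of those shared with day 8 and 49.6% of those of all days. Joining peaks of more lists adds peaks and width to shared footprints, and a highest fold over more peaks is larger, so part of these differences is fixed by the joining and the choice of members.

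At day 0 the members were bound in nearly every library. A passing peak overlapped 99.6% of them in replicate 1, 96.7% in replicate 2 and 97.7% in replicate 3 (1 nt shared on the strand was enough). In all, 5255 members passed in 3 of 3 day 0 libraries, 282 in 2 and 27 in 1. Every member had a cluster in all 3 day 0 libraries. These libraries made the list that chose the members, so the shares describe the choice.

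The name "day 0 only" held for the reproducible lists and not for single libraries of the later days. A passing peak overlapped 6.74% of the members in day 4 replicate 1, 41.9% in replicate 2 and 22.6% in replicate 3. At day 8 the shares were 17.9%, 12.6% and 39.8% in replicates 1 to 3. Day 4 replicate 1, with the fewest passing peaks of all libraries, had the lowest share, and day 4 replicate 2 and day 8 replicate 3, with the most of the later libraries, had the highest. Over libraries this gave 23.8% ± 17.6 at day 4 and 23.4% ± 14.4 at day 8 (SD, n = 3 each), against 98.0% ± 1.45 at day 0. The ranges of the later days overlapped each other and lay far below day 0. No test is given against day 0, because that contrast chose the members. Without day 4 replicate 2 the day 4 mean was 14.7%, and without day 8 replicate 3 the day 8 mean was 15.2%. With the 3030 strongest passing peaks of each library, the day 0 mean was 26.0% and those of days 4 and 8 were 14.7% and 11.2%. Such a cut drops most day 0 peaks.

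**Figure D1:**
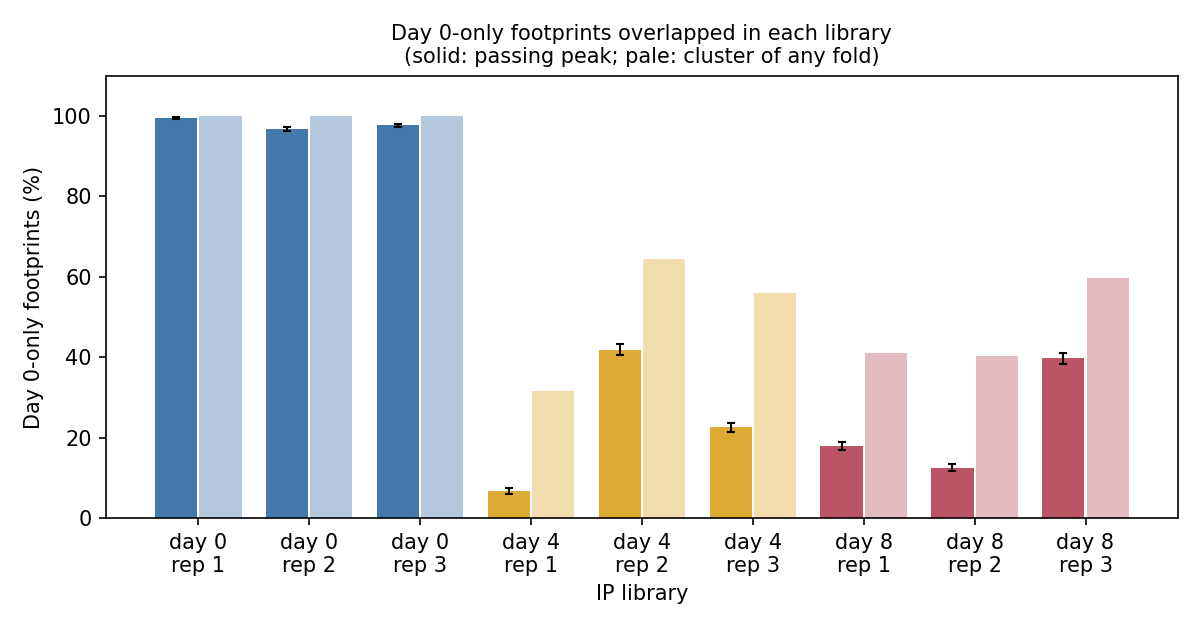
Share of the 5564 day 0-only footprints (y axis, %) overlapped by a passing peak (solid bars) or by a cluster of any fold (pale bars) in each of the 9 IP libraries (x axis). Black bars are Wilson 95% intervals of the passing share and cover counting error only. Day 0 libraries reach 96.7% or more, and later libraries range from 6.74% to 41.9% for passing peaks.

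In all, 3252 members (58.4%, Wilson 95% interval 57.1% to 59.7%) held a passing peak in at least 1 of the 6 later libraries. Of all 7018 footprints, 67.1% did so, a share that the shared footprints raise by their definition. The other 2312 members (41.6%) had no passing peak in any later library, and 32.9% of all footprints met this rule, every one of them a member. Passing in 3 of 3 day 0 libraries and 0 of 3 of day 4 held for 2744 members (49.3%), against 39.7% of all footprints, and the same rule against day 8 held for 2885 (51.9%), against 41.3%. With 0 of 6 later libraries it held for 2139 members (38.4%), against 30.5% of all footprints. All these counts come from the contrast that the choice used, and nothing is read from their difference from the background. Only 974 members (17.5%, 16.5% to 18.5%) had no cluster of any fold in any later library, against 13.9% of all footprints, and 1338 (24.0%) had later clusters without a passing one. At the other end, 495 members (8.90%) passed in 3 of 3 libraries of day 4 or of day 8 and 45 (0.809%) passed in all 6. Of all footprints, 27% and 8.81% did so, with the listed later-day footprints among them. Without day 4 replicate 2, the library with the most member hits after day 0, 2807 members had no later passing peak and 1214 no later cluster.

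**Figure D2:**
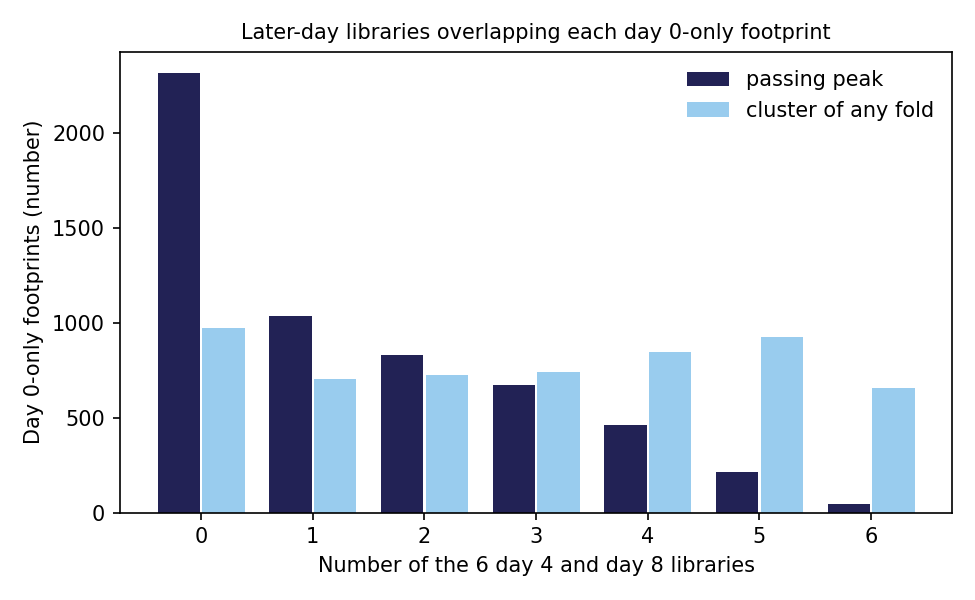
Number of day 0-only footprints (y axis) by the number of the 6 day 4 and day 8 libraries (x axis, 0 to 6) in which a passing peak (dark bars) or a cluster of any fold (light bars) overlapped them. Of the members, 2312 stand at 0 for passing peaks and 974 at 0 for clusters, and 45 and 658 stand at 6.

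Where a member had clusters but no passing peak in a later library, the cluster of highest fold mostly reached 4-fold and fell short on p. Among members with a cluster but no passing peak in a library, the strongest cluster was at least 4-fold over input in 81.4%, 86.5% and 75.1% of cases in day 4 replicates 1 to 3. The shares were 83.1%, 84.7% and 87.3% in day 8 replicates 1 to 3. In day 0 replicates 1 to 3 they were 0%, 41.8% and 31.5%, of 24, 182 and 130 members. In day 8 replicate 2, for example, 1305 of 1541 such members had a fold of at least 4 and 236 a lower one. These clusters took very few different values. The 1305 folds of day 8 replicate 2 had 17 distinct values, and 317 of them were the same log2 fold of 3.14. The 1122 of day 4 replicate 1 also had 17, with 307 at 3.29. Their median −log10 p lay between 1.52 and 2.09 in the 6 libraries, under the limit of 3. The read counts behind these values are not in the files used here, and the part of depth in the missing calls was not tested. Over all members with a cluster, passing ones included, the median −log10 p was 1.91 to 4.13 in the 6 later libraries. In day 0 replicates 1 to 3 this wider median was 9.30, 7.62 and 7.52.

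Whether day 4 or day 8 met the members more often could not be told from these libraries. The day 8 minus day 4 difference of the mean shares was -0.37 percentage points and is given without a test, since the lists that the members had to be absent from were made from these libraries. The direction turned without day 4 replicate 2 (8.72 points higher at day 8), without day 8 replicate 1 (2.41 points) and without day 8 replicate 2 (5.03 points). A passing peak at both later days was found for 1819 members (32.7%, against 42.5% of all footprints). It was found at day 4 but not day 8 for 787 (14.1%, against 11.5%) and at day 8 but not day 4 for 646 (11.6%, against 13%). The rule removed the footprints of 947 day 4 peaks and 1576 day 8 peaks from the members, so nothing is read from these differences. The strict rule of 3 of 3 libraries at one day and 0 of 3 at the other called 23 members for day 4 over day 8 and 60 for day 8 over day 4. These are 0.413% and 1.08% of the members, against 0.584% and 4.53% of all footprints, a background that includes footprints listed for a later day.

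Scaled to library length, the later libraries lay in a different order. Day 4 libraries hit 124, 300.2 and 315 members per 1000 passing peaks in replicates 1 to 3, and day 8 libraries 157, 188 and 202. Day 4 replicates 2 and 3 lay above all day 8 libraries and replicate 1 below them. The means were 246 ± 106 at day 4 and 182 ± 22.8 at day 8 (SD, n = 3 each), and the ranges overlapped through day 4 replicate 1. No test is given, for the same reason. Day 0 libraries hit 357, 424 and 416. Put the other way, members took in 39.6% to 47.3% of the passing peaks of a day 0 library, 12.3% to 31.5% at day 4 and 15.8% to 20.7% at day 8.

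The 412 footprints of day 8 only are the mirror of the members, and many of them also carried day 0 peaks in single libraries. A passing peak overlapped 21.1%, 17.2% and 12.9% of them in day 0 replicates 1 to 3. In at least 1 of these 3 libraries 34.5% passed (Wilson 95% interval 30.0% to 39.2%), and 39.3% had no day 0 cluster. For the members, 44.3% passed in at least 1 of 3 day 8 libraries and 31.4% had no day 8 cluster, against 55.5% and 25% of all footprints. At day 4 the shares were 46.8% and 25.4%, against 54% and 22.4%. The sets were chosen by the same libraries, so these shares stand side by side without a test.

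The most enriched members illustrate how the later days differ from site to site. They were taken from members at least 10 nt wide that passed in 3 of 3 day 0 libraries, with 1 footprint per locus, and their day 0 log2 folds ran from 7.80 to 9.03. A locus joins footprints within 20 kb on the same strand. The first was a 16-nt footprint on the plus strand of chromosome 22 (27069236 to 27069251). Its log2 folds were 10.07, 9.01 and 8.02 in day 0 replicates 1 to 3, and 5.27 and 5.96 in day 4 replicates 1 and 3. No cluster lay there in day 4 replicate 2 or in any day 8 library. It sat 20 nt from a reproducible later-day peak, inside the locus with the most members.

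Chromosome 17 carried a minus-strand member of 243 nt (32183364 to 32183606) with day 0 log2 folds of 9.41, 8.55 and 8.15. It passed in all day 4 libraries, at 4.29, 7.15 and 4.25, and at day 8 had a single cluster short of the threshold in replicate 3 (3.27). Although 3 of 3 day 4 libraries passed, this site was not on the day 4 reproducible list, and the nearest later-day reproducible peak lay over 1 Mb away. On the minus strand of chromosome 7 a member (19985210 to 19985314) had the same pattern. It stood at 7.66, 7.72 and 6.72 at day 0 and at 5.02, 4.53 and 4.02 at day 4, and only day 8 replicate 3 held a cluster (3.27, short of the threshold).

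The reverse order of days was also seen. A 146-nt member on the plus strand of chromosome 13 (113499616 to 113499761) had day 0 log2 folds of 7.77, 6.93 and 8.72, no cluster in any day 4 library, and passing peaks at 6.08 and 7.14 in day 8 replicates 2 and 3. It lay 32 nt from a later-day reproducible peak. A 73-nt member on the plus strand of chromosome 5 (165656 to 165728) stood at 8.74, 8.40 and 7.50 at day 0 and passed once per later day, in day 4 replicate 3 (5.69) and day 8 replicate 2 (6.36). The remaining members of this group lay on chromosome 6 (minus strand, 2201969 to 2202048), chromosome 15 (plus strand, 22955732 to 22955818), chromosome 22 (minus strand, 42720137 to 42720246) and chromosome 3. Both chromosome 3 members were on the plus strand (76418856 to 76418989 and 76474207 to 76474329). The first passed in 2 day 4 libraries and no day 8 library, and the second in no later library, with 1 cluster at day 4. Of the 10, 9 passed in at least 1 later library and 5 passed at day 8. Among all members 58.4% and 44.3% did so, and among all footprints 67.1% and 55.5%.

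**Figure D3:**
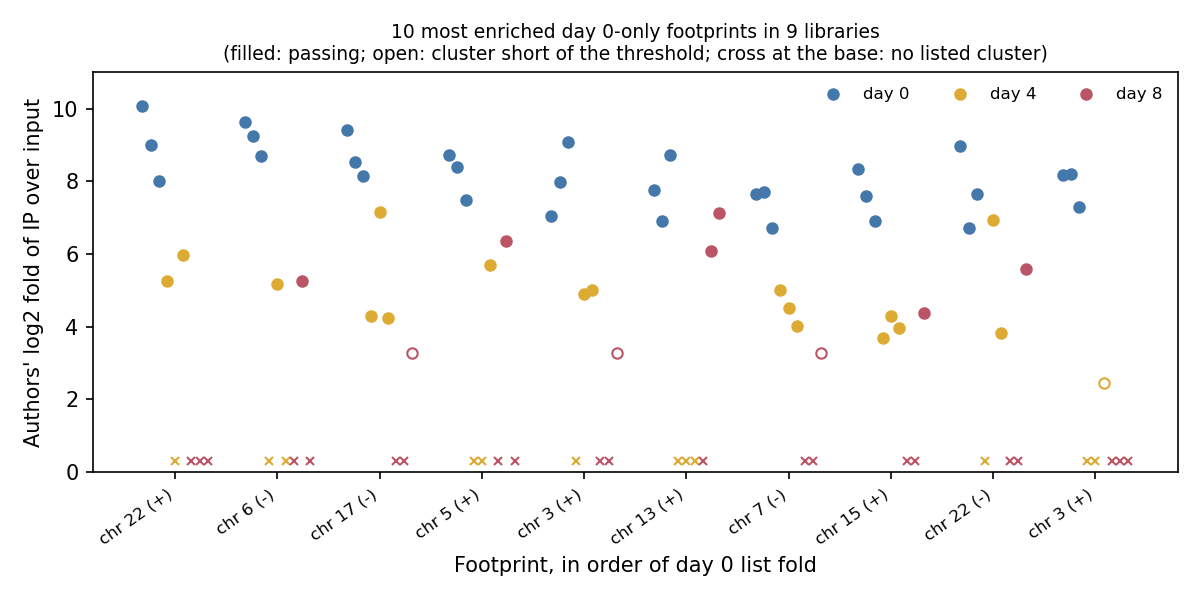
Authors' log2 fold of IP over input (y axis) of the strongest cluster at each of the 10 most enriched day 0-only footprints (x axis, by chromosome and strand), with 1 point per library, coloured by day. Filled points passed, open points fell short of the threshold, and crosses at the base mark libraries without a listed cluster. All day 0 points lie between 6.72 and 10.07, and the chromosome 3 footprint at the right end has no passing later point.

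Members without any later cluster were of different kinds. Their day 0 fold (median log2 4.26) was close to that of the 1338 members with non-passing later clusters (4.18). The median was higher, at 4.48, for the 2757 that passed in some later libraries. It was 4.95 for the 495 that passed in 3 of 3 libraries of a later day. In this order of sets the median widths were 74, 77, 78 and 87 nt, and a wider footprint is met more easily. The part of width in the fold order was not tested. Of the 974, 314 (32.2%) had no cluster of any later library within 5 kb on the same strand. Another 431 had such neighbours at both later days, 195 at day 4 and not day 8, and 34 at day 8 and not day 4. Day 4 libraries listed more clusters of any fold than day 8 libraries, and the part of this in the last counts was not tested. A later-day reproducible peak lay within 200 nt of 53 of them.

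The strongest of these cluster-free members show both settings. A 33-nt member on the plus strand of chromosome 22 (27067870 to 27067902) had day 0 log2 folds of 9.45, 8.16 and 8.46 and lay 47 nt from a later-day reproducible peak. Next in fold was an 84-nt member on the plus strand of chromosome 3 (138669662 to 138669745), with 8.73, 8.00 and 6.03, and no later cluster of any fold lay within 5 kb of it. A 131-nt member on the plus strand of chromosome 15 (43889901 to 43890031) likewise had no later cluster within 5 kb (day 0 log2 folds 8.24, 7.36 and 5.16). Of the 10 strongest, 6 lay within 123 nt of a later-day reproducible peak and 2 had no later cluster within 5 kb. Among all 974 cluster-free members, 5.44% had a later-day reproducible peak within 200 nt and 32.2% had no later cluster within 5 kb. The 10 are therefore not typical of the set in their nearness to later peaks. The members close to later peaks included a pair on the minus strand of chromosome 19 (8153557 to 8153655 and 11342923 to 11343041), 46 and 77 nt from the nearest later peak. A pair on the plus strand, on chromosome 3 (51315012 to 51315092) and chromosome 13 (113500304 to 113500316), lay at 46 and 123 nt, and a member on the minus strand of chromosome 6 (5189729 to 5189791) at 15 nt. The remaining ones lay on chromosome 17 (minus strand, 32183649 to 32183741) and chromosome 16 (plus strand, 24060818 to 24060937), with later clusters of 4 and 1 libraries within 5 kb. Members beside a later peak and members far from one were both found among these sites.

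Distances were taken to the nearest later-day site and to the nearest other member. Members far outnumber the later-day footprints, and the rule left out every footprint that overlapped a later-day peak, so both sets of distances are given without a comparison. A reproducible later-day peak on the same strand was within 50 nt of 99 members, within 200 nt of 271 and within 1 kb of 512 (9.20%), and 83.4% had none within 20 kb. Another member was within 50 nt of 972, within 200 nt of 1723 (31.0%) and within 20 kb of 61.5%. The 512 members within 1 kb of a later-day peak passed in 10.4%, 35.7% and 27.7% of cases in day 4 replicates 1 to 3 and in 26.8%, 26.4% and 38.7% in day 8 replicates 1 to 3. For the 4638 members with none within 20 kb the shares were 6.36%, 41.9% and 21.8% at day 4 and 16.2%, 10.5% and 38.9% at day 8. Members near a later-day peak had the higher share in 4 libraries, the lower one in day 4 replicate 2 and a nearly equal one in day 8 replicate 3. For clusters of any fold the libraries were split. Members near a later-day peak had the lower share in day 4 replicate 2 (46.9% against 65.5%) and replicate 3 (47.1% against 56.4%). The same held in day 8 replicate 3 (50.2% against 59.9%). They had the higher share in day 4 replicate 1 (33.2% against 30.7%). In day 8 replicates 1 and 2 it was also higher (40.2% against 39.5% and 46.1% against 38.7%). No later passing peak was found for 33.0% of the first set and 43.4% of the second, and no later cluster for 18.8% and 18.2%.

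**Figure D4:**
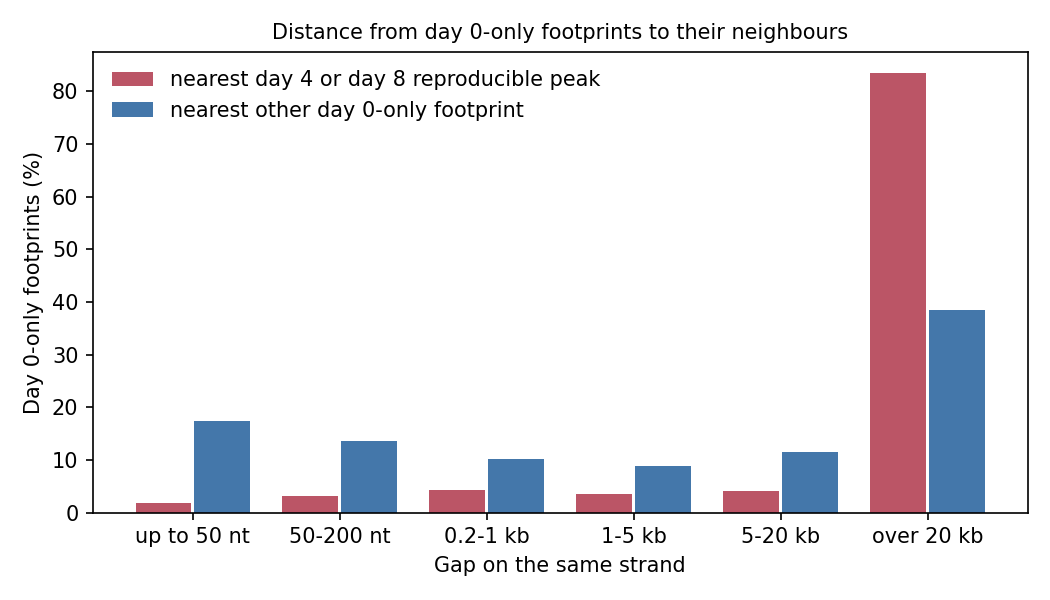
Share of the day 0-only footprints (y axis, %) by the gap on the same strand (x axis, 6 classes of distance) to the nearest reproducible day 4 or day 8 peak (red) and to the nearest other day 0-only footprint (blue). Within 50 nt these shares are 1.78% and 17.5%, and beyond 20 kb they are 83.4% and 38.5%.

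The rule that separates members from shared footprints works at the scale of single nucleotides. The nearest members on the inside lay 2 nt from a later-day peak. They were on chromosome 10 (minus strand, 369229 to 369261, day 0 log2 fold 6.95), chromosome 22 (plus strand, 27069809 to 27069815, 5.71) and chromosome 19 (minus strand, 3650239 to 3650289, 5.32). Just outside were footprints whose day 0 and later-day peaks shared 2 or 3 nt, on chromosome 20 (plus strand, 2635713 to 2635718, log2 fold 3.49 in the day 0 list), chromosome 3 (plus strand, 39449904 to 39449920, 2.21) and chromosome 19 (plus strand, 49993224 to 49993245, 2.36). Within 10 nt of a later-day peak lay 20 members, and 13 of 932 shared footprints overlapped by under 10 nt. Few members lay near the fold limit of the day 0 list, with 124 (2.23%) under a log2 fold of 2.5. With 8-fold merged peaks the members numbered 5155. The lengths of the lists were varied as well. With the 947 strongest peaks of each day, 220 of 1367 footprints were day 0 only, 336 day 4 only and 379 day 8 only. This cut removes most day 0 peaks and no day 4 peak by construction.

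Members were found on every numbered chromosome, the X chromosome and the mitochondrial genome. They made up 68.9% of the footprints on chromosome 2 and 91.0% on chromosome 21, the lowest and highest shares among the numbered chromosomes, and 85.2% on the X chromosome. The mitochondrial genome was different, with 1 member of 26 footprints. That member (plus strand, 15829 to 15853) had log2 folds of 3.01, 2.97 and 2.56 at day 0. It also passed in day 4 replicate 3 (2.40) and in day 8 replicates 1 and 3 (3.74 and 4.46), and had no cluster in the other later libraries. It was named because of its chromosome, after its values were seen. On the numbered chromosomes and X, the share of members without a later cluster ran from 7.17% on chromosome 10 to 25.9% on chromosome 3. Of the 113 such members on chromosome 3, 46 lay in a single plus-strand stretch of 1007 kb, described below.

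Most members stood alone or in small groups along the RNA. Of 3755 loci, 3214 held a member. In 2865 loci every footprint was a member, and these loci held 4585 members. A single member made up 1988 of them, 485 held 2, 336 held 3 to 5 and 56 held 6 or more. The other 979 members shared 349 loci with footprints of a later day. Among the 2865 loci, 869 (30.3%) had no passing peak and 280 (9.77%) no cluster of any later library. Among the 349 loci with later-day footprints both counts were 0, since such footprints hold later peaks. For the 877 loci of members alone with 2 or more members, passing peaks were found at both later days in 447, at day 4 and not day 8 in 136, at day 8 and not day 4 in 73, and in no later library in 221. The choice of these loci left out those with peaks of either later list, so nothing is read from this split. In 65 of the 877 loci no later library held a cluster. The largest loci without a later cluster held 6 members each. They lay on chromosome 7 (minus strand, 20121369 to 20154384), chromosome 4 (minus strand, 180331164 to 180351005) and, within 558 nt, chromosome 3 (plus strand, 138669403 to 138669960). At the chromosome 7 locus the day 0 libraries held 39, 45 and 46 clusters, of which 9, 9 and 8 passed. The compact chromosome 3 locus held 11, 6 and 6 day 0 clusters, and all of them passed.

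The loci with the most members ranged from near silence to continued binding at the later days. Passing peaks are given here per library for replicates 1 to 3. The fullest of the loci without a later-day footprint held 18 members over 89.2 kb on the plus strand of chromosome 3 (76198522 to 76287701), 17 of them without a later cluster. Its day 0 libraries held 95, 136 and 141 clusters, day 4 libraries 0, 3 and 1, and day 8 libraries 0 each. A locus of 11 members on the plus strand of chromosome 4 (93332605 to 93382835) was alike, with 15, 14 and 13 passing peaks at day 0 and none later. It kept 1, 2 and 2 clusters at day 4 and 0 at day 8.

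Other full loci kept some passing peaks in single later libraries. The locus of 15 members on chromosome 1, plus strand (213034218 to 213058519), held 17, 19 and 18 passing peaks at day 0 and exactly 1 in each of the 6 later libraries. One of its members (213037393 to 213037469) passed in all 6, at log2 folds of 4.29, 4.97 and 4.76 at day 4 and 4.08, 3.88 and 5.21 at day 8. The member count without a later passing peak was 13 of 15. The compact locus on the minus strand of chromosome 22 (42717384 to 42723860), with 13 members in 6.48 kb, held 29, 26 and 22 passing peaks at day 0, 3, 4 and 7 at day 4 and 2, 1 and 5 at day 8. On the plus strand of the X chromosome (51546419 to 51606240) 11 members lay in a locus with 15, 12 and 16 passing peaks at day 0, 0, 4 and 3 at day 4, and 1, 0 and 9 at day 8. It kept 13 to 33 clusters in every later library, so signal of any fold was still listed there in each of them.

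Some of these loci had fewer clusters at day 8 than at day 4 in every library, and at others the days overlapped. The locus of 11 members on chromosome 20, plus strand (31381431 to 31393697), held 20, 22 and 23 clusters at day 0, 7, 10 and 6 at day 4, and 0, 1 and 1 at day 8. A locus of 12 members on chromosome 4, plus strand (93735054 to 93786189) held 10, 14 and 11 clusters at day 4 and 0 in each day 8 library, and a single later passing peak, in day 4 replicate 2. The locus of 9 members on the minus strand of chromosome 18 (4332127 to 4359190) had 3, 9 and 4 clusters at day 4 and 0, 2 and 5 at day 8. At the plus-strand locus of chromosome 21 (40994871 to 41038963, 11 members) the counts were 4, 4 and 2 at day 4 and 1, 3 and 5 at day 8. The days overlapped at both of these loci. The second plus-strand locus of chromosome 3 (75993511 to 76072287, 11 members) had 2, 3 and 3 clusters at day 4 and 0 at day 8.

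**Figure D5:**
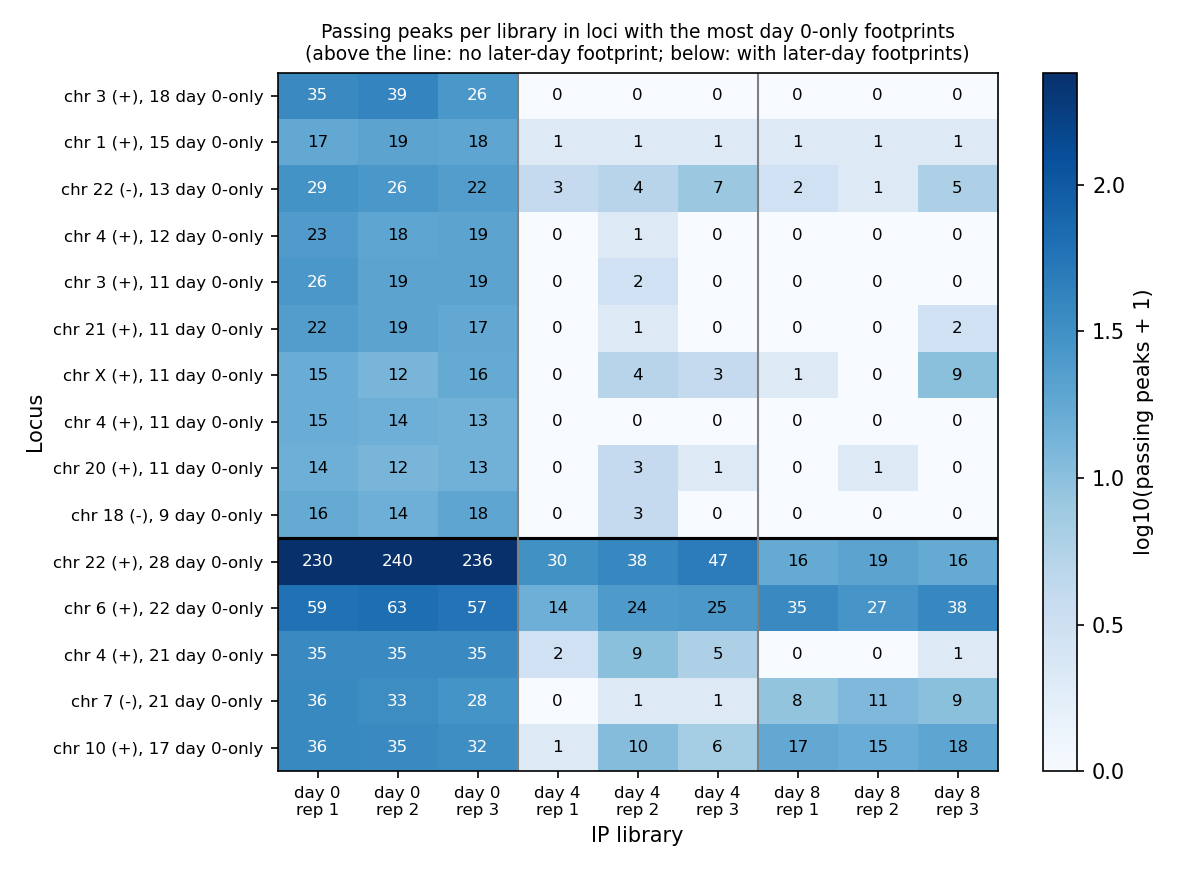
Passing peaks in each of the 9 IP libraries (columns, number printed in the cell, colour as log10 of the number + 1) for the 10 loci with the most day 0-only footprints and no later-day footprint (above the black line) and the 5 with the most beside later-day footprints (below it). Above the line day 0 counts run from 12 to 39 and later counts from 0 to 9.

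Several of these loci lay side by side in long stretches of the same strand. When footprints within 150 kb on the same strand were chained, the stretch with the most members ran over 1376 kb on the plus strand of chromosome 4 (93274220 to 94650688). It held 92 members in 18 loci and 3 later-day footprints. Clusters of any fold numbered 736, 1048 and 1086 in its day 0 libraries, 64, 117 and 134 at day 4, and 2, 1 and 5 at day 8. Passing peaks numbered 171, 167 and 173 at day 0, 4, 17 and 9 at day 4, and 0, 0 and 1 at day 8. The day 4 libraries all lay between those of day 0 and day 8.

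On the plus strand of chromosome 3 a stretch of 1007 kb (75993511 to 77000579) held 61 members in 17 loci and no later-day footprint. No later cluster was found for 46 of them, or 75.4% of the stretch against 17.5% of all members. Its clusters numbered 661, 942 and 933 at day 0, 4, 18 and 17 at day 4, and 1 in each day 8 library. A 466-kb stretch on the plus strand of chromosome 8 (35103453 to 35569207) had 28 members, 19 without a later cluster. It held 275, 360 and 378 clusters at day 0, 10, 23 and 21 at day 4, and 0, 3 and 5 at day 8. The stretch on the minus strand of the X chromosome (112863855 to 113166579, 31 members) kept more, with 31, 67 and 62 clusters at day 4 and 2, 14 and 17 at day 8. Chaining at 150 kb was chosen after the data were examined, and the stretches were picked for their number of day 0 sites, so their later counts are a description. Clusters of any fold fell with the passing peaks there, and whether the RNA was still made was not tested.

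The loci that members shared with later-day footprints hold later binding by their definition, and its amount differed between them. The locus with the most members, on chromosome 22, plus strand (27065918 to 27070593), held 28 members and 11 later-day footprints within 4.68 kb. Every listed cluster there was a passing peak, with 230, 240 and 236 at day 0, 30, 38 and 47 at day 4, and 16, 19 and 16 at day 8. Of its 28 members, 11 had no later cluster. One member (27068543 to 27068671) joined 16 day 0 peaks in 129 nt, the most of any, and passed in 2 day 4 libraries and no day 8 library. On the plus strand of chromosome 6 (10778692 to 10796329) 22 members lay beside 7 later-day footprints, and none of the 22 was without a later cluster. That locus held 59, 63 and 57 passing peaks at day 0, 14, 24 and 25 at day 4 and 35, 27 and 38 at day 8.

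Day 4 was the lower of the later days at 2 more of these loci. On the minus strand of chromosome 7 (158543025 to 158575873, 21 members) passing peaks numbered 36, 33 and 28 at day 0, 0, 1 and 1 at day 4, and 8, 11 and 9 at day 8. On the plus strand of chromosome 10 (134355724 to 134367839, 17 members) they numbered 36, 35 and 32, then 1, 10 and 6, then 17, 15 and 18. The days did not overlap at either locus. At the chromosome 4 locus (plus strand, 93645655 to 93711539, 21 members) the order was the other way, with 2, 9 and 5 at day 4 and 0, 0 and 1 at day 8. Day 4 and day 8 libraries did not overlap there either. These 5 loci were named for their number of members, and no test across loci was made.

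Most of the 5 widest members and the 5 with the most day 0 peaks passed in at least 1 later library. Of all members, 58.4% did so. A wider footprint is met more easily where 1 nt of overlap counts, so no trait of wide members is read from this. The widest, 398 nt on the plus strand of chromosome 1 (6997097 to 6997494), had a passing peak in each of the 9 libraries. The log2 folds were 6.40, 6.35 and 5.61 at day 0, 4.02, 4.85 and 4.35 at day 4, and 3.91, 4.83 and 5.01 at day 8. The next 4 were 298 to 372 nt wide, on chromosomes 18, 11, 5 and 2, and each passed in 2 to 5 later libraries. After the chromosome 22 footprint of 16 peaks, the members with the most day 0 peaks held 6 or 5 of them. They lay on chromosome 22 (minus strand, 42719986 to 42720129), chromosome 5 (minus strand, 93535237 to 93535520) and chromosome 8 (plus strand, 72594116 to 72594231 and 132325304 to 132325458). Of these 4, the chromosome 5 footprint had no later passing peak, the chromosome 22 footprint passed in 3 day 4 libraries and 1 day 8 library, and both chromosome 8 footprints passed in 2 day 4 libraries and no day 8 library.

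Some members that passed in every later library were strong at day 0 as well. Among the 45 such members the highest day 0 fold, 7.46, was at a 164-nt footprint on the minus strand of chromosome 19 (5262797 to 5262960). Its log2 folds were 8.14, 7.30 and 7.58 at day 0, 4.02, 5.53 and 3.18 at day 4, and 4.37, 3.88 and 3.69 at day 8. A 207-nt footprint on the minus strand of chromosome 3 (65577899 to 65578105) stood at 7.88, 7.24 and 6.82, then 4.16, 5.18 and 5.35, then 4.72, 4.25 and 6.44. The third was on the plus strand of chromosome 15 (22955947 to 22956091), at 7.50, 6.16 and 7.95, then 3.29, 4.16 and 3.76, then 3.91, 4.14 and 3.93. Day 0 folds were above all later folds at each of these 3 sites. The sites were ranked by day 0 fold, so this order is partly fixed by their choice. Folds come from each library's own IP and input, and these sites were chosen after their values were seen.

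Few members passed in 3 of 3 libraries of one later day and in 0 of 3 of the other. Their shares, 0.413% for day 4 and 1.08% for day 8, stand beside 0.584% and 4.53% of all footprints. For day 4 these members were led by the chromosome 17 and chromosome 7 footprints above and a 134-nt footprint on chromosome 6, minus strand (161686491 to 161686624). The latter stood at 8.34, 6.18 and 7.93 at day 0 and between 4.14 and 4.40 in the day 4 libraries, without a day 8 cluster. For day 8 the leading footprints were on chromosome 10. On its minus strand a 116-nt member (97154208 to 97154323) stood at 6.88, 6.66 and 5.03 at day 0 and 4.23, 3.06 and 5.49 at day 8, without a day 4 cluster. Further along the same strand a 213-nt member (97174002 to 97174214) passed at 4.50, 3.14 and 3.10 at day 8. At day 4 it had only a weak cluster, at 1.44, in replicate 3. The third lay in the plus-strand chromosome 10 locus above (134364852 to 134364928), with 4.91, 5.14 and 3.36 at day 8. These 6 were picked for this pattern, which is given without a test.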

How the data were processed

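QKI eCLIP peak lists of 9 IP libraries and 3 merged lists were analysed. The 9 inputs were not analysed here beyond the authors' scores. The submitters' processing notes name cutadapt, STAR, SAMtools and hg19. Neither the peak caller nor the duplicate filter is given in the sources used here. Each peak was scored against its input, and the merged lists keep peaks that were reproducible by IDR over 3 libraries and at least 4-fold enriched, per the file headers. The authors deposited a log2 fold of IP over input and a −log10 p-value (capped at 400) for each peak.

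Computed here with Python 3.11.15, pandas 2.3.3 and SciPy 1.17.1: footprints, same-strand overlaps (1 nt or more), loci (20 kb), and clusters within 5 kb. Interval code was tested on simulated intervals. No test is reported: a permutation test of day 8 against day 4 was planned, but libraries of both days took part in choosing the members. Wilson intervals cover counting error only. Members and named regions were chosen with earlier results of these data known. Named were the 10 members with the highest day 0 fold (at least 10 nt, 3 of 3 day 0 libraries, 1 per locus), the 10 such without later clusters, the 10 loci with the most members and no later-day footprint (ties by day 0 passing peaks), the 5 with later-day footprints, the 5 widest, the 5 with most peaks and the 3 nearest to a later peak. Motif, annotation and gene-list steps were not run, for want of hg19 references here.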

Additional observations from a re-analysis of the deposited data

How the results depend on the processing

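The number of members was 4888 to 6124 under other joining rules, 8-fold peaks or a 10-nt minimum, and 220 with equal list lengths, an alternative chosen after the data were examined that keeps only the strongest 947 peaks per day. The day 0 share of members with a passing peak, 98.0%, was 86.9% at 8-fold, 100% for any cluster, 94.8% with 50% of the footprint covered, and 26.0% with the 3030 strongest passing peaks of each library, a cut that drops most day 0 peaks by construction. Under this cut the share was 14.7% at day 4 and 11.2% at day 8, and 3366 members had no later passing peak. For any cluster the share was 50.7% at day 4 and 47.0% at day 8, and members without later support numbered 974. Leaving out a replicate gave 97.2% to 98.6% at day 0, 14.7% to 32.3% at day 4 and 15.2% to 28.8% at day 8, with 2334 to 2807 members without a later passing peak and 1013 to 1214 without a later cluster. The day 8 minus day 4 share ranged from -8.88 to 8.72 points over these, turning to 8.72, 2.41 and 5.03 without day 4 replicate 2, day 8 replicate 1 and day 8 replicate 2. Scaled per 1000 passing peaks, the difference was -63.9 and ranged from -125 to -29.5 without single libraries (-125 without day 4 replicate 1). The permutation test planned for day 8 against day 4 is not reported, because the same libraries took part in choosing the members. The replicate block left the difference in shares at -0.37 points. Same-numbered day 4 and day 8 libraries had deviations correlated at 0.11, -0.14 and 0.03, and those of unlike number between -0.25 and 0.21. These values cannot tell whether same-numbered libraries were paired. Loci of members alone numbered 3432 at 5 kb and 2386 at 50 kb. The motif and annotation alternatives were not run. Depth is unknown, so an unlisted position is not shown to be unbound.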
